A study of Homo sapiens with 6 samples.

Results

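Axon guidance proteins steer growing nerve fibres, and most also act on vessels and epithelia. Slits are secreted ligands of Robo receptors, and semaphorins signal through plexins, some of them with a neuropilin as coreceptor. Ephrins are anchored to the membrane and signal both into the cell that carries the Eph receptor and back into their own. Netrins bind DCC and neogenin, which can mediate attraction, and the UNC5 receptors, which mediate repulsion. The genes described here are those of these families chosen by symbol alone, namely 20 semaphorins, 9 plexins, 13 Eph receptors, 8 ephrins, 3 Slits, 4 Robos, 3 netrins and 6 netrin receptors. They are 66 of the 19775 genes measured.

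The study asked which genes depend on the amount of SF-1, a nuclear receptor encoded by NR5A1 that directs steroid production, in human adrenocortical cancer cells. All 6 samples were H295R/TR SF-1 cells, a single subclone of the adrenocortical carcinoma line H295R that carries doxycycline-inducible SF-1, kept in culture for 72 h, in plates whose size the labels and the study's methods give differently. In 3 samples, called basal, no doxycycline was given, and in 3, called Dox, it was given at 1 µg/mL. Cells without the inducible SF-1 are not among these samples, so an effect of doxycycline itself and an effect of SF-1 cannot be told apart. Total RNA was hybridised to Affymetrix HG-U133 Plus 2.0 arrays, and values are log2 signals, where a difference of 1 is a doubling of the signal. Arrays are numbered within a group in order of deposition, so equal numbers do not pair arrays. Signals of different genes come from different probes, so the level of a gene is described only against a median, in most places that of all probe sets of the array. Each gene is read by its brightest probe set, which favours a place above the median of the array. Sums of log2 signals over a list of markers are given only to compare arrays. In such bulk RNA, fewer cells of a type and less RNA per cell cannot be told apart.

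Before any result, 2 pairs of arrays with opposite labels were nearly alike. Over the 66 guidance genes, the difference between basal 1 and Dox 1 had an SD of 0.14, and that between basal 3 and Dox 2 also had an SD of 0.14. Between arrays of the same label the SD was 0.32 to 0.54. NR5A1 itself read 5.84, 5.92 and 6.30 in the basal arrays and 5.55, 6.21 and 6.41 in the Dox arrays, so the groups overlapped. Whether these probes read the inducible transcript is not given in the sources used here. The study followed SF-1 protein by immunoblot, which is not part of these data. Whether labels of these arrays were exchanged at deposition cannot be told from the sources used here, and every labelled value holds only as far as the labels do. Each comparison is therefore given in 2 forms. The labelled comparison uses all 6 arrays. The 4-array comparison leaves out 1 array of each alike pair, basal 3 and Dox 1, and compares basal 1 and basal 2 with Dox 2 and Dox 3, with the pair of basal 2 and Dox 3 as a block. It keeps every label, but the arrays left out were chosen from the data, its fit has 1 residual degree of freedom, and its p-values are not independent evidence.

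Markers of the adrenal cortex and of other cell types were read on the same arrays. Of 12 adrenocortical markers 11 were measured, and 6 lay above the median signal of the array on all 6 arrays. On all 6 arrays 2 lay below it, CYP11B1 and INHA. NR5A1, HSD3B2 and MC2R lay above it on some arrays only. The 11 markers had summed log2 signals of 84.1 to 89.2 in the basal and 84.3 to 87.2 in the Dox arrays. In the 4-array comparison 1 of the 11 was higher, SULT2A1, and 2 were lower, STAR and HSD3B2. Of all genes 3.42% were higher and 3.58% lower. NR5A1 itself differed by 0.43 ± 0.13 in that comparison and did not pass (limma adjusted p = 0.0808). Of the measured markers of endothelial cells (6), fibroblasts (6), leukocytes (5) and chromaffin or neural cells (5) 0 passed the test. On all 6 arrays 4, 3, 3 and 3 of them lay below the median of the array, among them CDH5, KDR, LUM, PTPRC and TH, and 1, 2, 2 and 2 lay above it, among them PECAM1, COL1A1, LAPTM5 and CHGA. Their summed log2 signals were 28.7 to 29.4, 31.1 to 32.2, 23.5 to 24.3 and 26.6 to 26.9 in the basal arrays. In the Dox arrays these sums were 28.8 to 29.4, 30.7 to 32.9, 23.2 to 24.1 and 26.7 to 27.1.

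Of the 66 guidance genes, 41 lay above the median of their array on all 6 arrays and 20 below it on all 6, and a gene below is not shown to be above background. All 8 ephrins and all 3 Slits were above on every array. A place above this median does not show a signal above background either, since the leukocyte marker CD3E also lay above it on all 6 arrays. Against the median level of genes, a higher bar, 26 of the 66 lay above, and EFNB2 was not among them. Among the semaphorins, the secreted class 3 genes SEMA3A, SEMA3B, SEMA3C, SEMA3D, SEMA3E and SEMA3G were below, while SEMA3F and the 13 genes of classes 4 to 7 were above. Of the 13 Eph receptors 7 were below on every array, 6 of which belong to the EPHA group. Below on every array were also PLXNA2, PLXNA4, PLXNB3, ROBO2, NTN4, DCC and UNC5D, so that of the attractive netrin receptors neogenin lay above the median of every array and DCC below it.

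By the labels as deposited, doxycycline was not shown to move any guidance gene. Of 19775 genes 0 passed the adjusted threshold of 0.05 in limma (0% of all genes), and 0 of the 66 guidance genes did. At an unadjusted p under 0.05, 0 guidance genes passed against 109 of all genes (0.551%). The study names as thresholds a change of 2-fold or more and a p below 0.05. That p is taken here as the unadjusted limma p, since the study does not say which p it used. These thresholds also took 0 guidance genes and 0 of all genes (0%). The study itself reports genes both raised and lowered by SF-1 overexpression at its thresholds, a list that the labelled arrays did not return here. The labelled differences of the 66 genes ran from −0.29 to 0.46, with a median of −0.02 beside −0.0005 over all genes. Basal and Dox arrays did not overlap in 2 guidance genes (3.03%) against 627 of all genes (3.17%), a share near the background. These were EPHA5, an Eph receptor below the array median throughout, which was 0.19 higher in the Dox arrays, and SEMA4B, a membrane-bound semaphorin, which was 0.18 lower (−0.18). In both, the exact permutation test over the 6 arrays gave p = 0.1, two-sided, the smallest it can give with 3 arrays against 3.

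In the 4-array comparison, 12 of the 66 genes passed (18.2%), against 1383 of the 19775 genes (6.99%). SLIT2, PLXNB2, EFNB2, SEMA7A and PLXND1 were higher in the Dox arrays, which is 5 of 66 (7.58%) beside 3.42% of all genes. PLXNC1, NTN4, SEMA6A, EFNA1, NEO1, EPHB4 and SEMA4D were lower, which is 7 of 66 (10.6%) beside 3.58% of all genes. The median difference of the 66 genes was −0.04, beside −0.01 over all genes. With the study's thresholds, 3 guidance genes passed (4.55%), namely SLIT2, PLXNB2 and EFNB2, against 1.53% of all genes. The study named these 3 genes as changed on these samples, so they are not independent evidence of a direction. The calls rest on which arrays are left out and on the block. With basal 1 and Dox 2 left out instead, or with no block, 0 guidance genes passed, and 0 and 7 of them had an unadjusted p under 0.05.

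**Figure D1:**
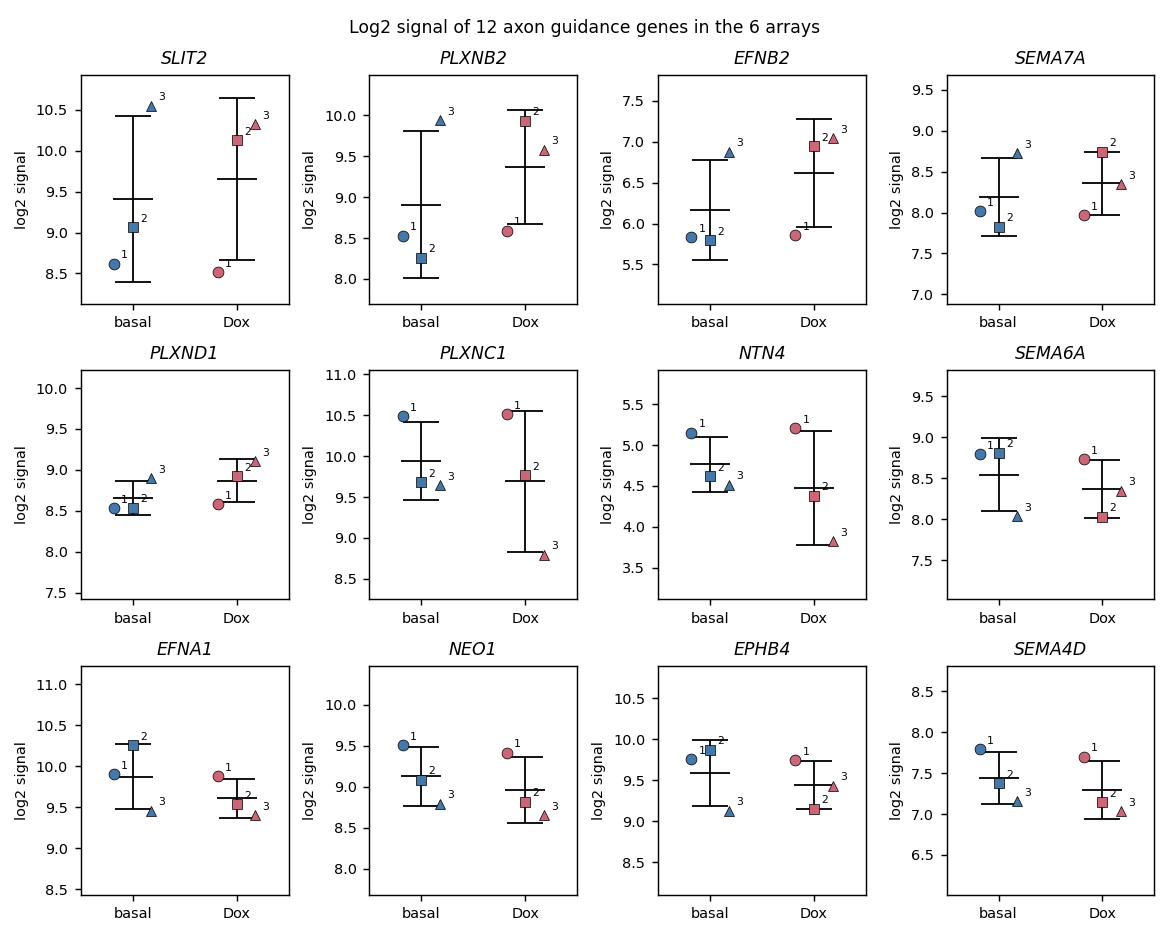
Log2 signal (vertical axis) of the 12 guidance genes that passed in the 4-array comparison, 1 panel per gene, with a point for each of the 3 basal and 3 Dox arrays and the group mean ± SD over the 3 arrays. In every panel Dox 1 lies beside basal 1, and basal 3 lies near Dox 2, so the labelled groups overlap in all 12 genes.

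SLIT2 encodes a secreted repellent that binds Robo receptors. It read 8.62, 9.07 and 10.55 in basal 1, 2 and 3, and 8.51, 10.13 and 10.33 in Dox 1, 2 and 3. The highest array was thus a basal one and the lowest a Dox one. In the 4-array comparison SLIT2 was 1.38 ± 0.11 (SE) higher in Dox (2.61-fold, limma adjusted p = 2.36e-05), while by label the difference was 0.24 ± 0.64. PLXNB2, a plexin that binds class 4 semaphorins, read 8.53, 8.26 and 9.94 in the basal and 8.59, 9.93 and 9.58 in the Dox arrays. Here 3 arrays stood high, basal 3, Dox 2 and Dox 3, and the other 3 low. PLXNB2 was higher in Dox by 1.36 ± 0.11 in the 4-array comparison (2.57-fold, limma adjusted p = 2.52e-05) and by 0.46 ± 0.52 by label. EFNB2, the membrane-anchored ligand that marks arterial endothelium and binds EPHB4, read 5.84, 5.80 and 6.88 in the basal and 5.86, 6.94 and 7.05 in the Dox arrays. The same 3 arrays were high as in PLXNB2. Its difference was 1.18 ± 0.13 in the 4-array comparison (2.26-fold, limma adjusted p = 0.000172) and 0.45 ± 0.41 by label. In exact permutation tests of the labels over the 6 arrays, two-sided, p was 1 for SLIT2, 0.6 for PLXNB2 and 0.2 for EFNB2.

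SF-1 binds DNA at AGGTCA half-sites, usually as AAGGTCA, and the sequence just before the start of these genes is shown so that the letters can be read beside the values. The windows are the 250 bases before the RefSeq start on GRCh38.p14, 5′ to 3′ on the strand of the gene. Capitals mark AGGTCA or its reverse complement TGACCT, and the GC box GGGCGG or its reverse complement CCGCCC. The first 3 are those of the genes past 2-fold, and the windows of NEO1 and NTN4 are those of the genes among the 12 with a half-site.
SLIT2 (chr4:20251655-20251904, + strand): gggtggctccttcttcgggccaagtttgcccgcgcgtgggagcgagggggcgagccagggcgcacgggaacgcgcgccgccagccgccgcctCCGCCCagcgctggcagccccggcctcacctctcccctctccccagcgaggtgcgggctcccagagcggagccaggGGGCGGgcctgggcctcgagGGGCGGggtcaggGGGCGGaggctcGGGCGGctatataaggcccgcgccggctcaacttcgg
EFNB2 (chr13:106535663-106535912, − strand): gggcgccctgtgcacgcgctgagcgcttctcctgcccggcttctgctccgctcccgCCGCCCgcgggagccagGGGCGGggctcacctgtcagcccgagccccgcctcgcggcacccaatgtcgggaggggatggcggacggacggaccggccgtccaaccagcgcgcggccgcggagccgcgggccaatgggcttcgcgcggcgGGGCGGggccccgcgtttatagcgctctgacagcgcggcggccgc
PLXNB2 (chr22:50301670-50301919, − strand): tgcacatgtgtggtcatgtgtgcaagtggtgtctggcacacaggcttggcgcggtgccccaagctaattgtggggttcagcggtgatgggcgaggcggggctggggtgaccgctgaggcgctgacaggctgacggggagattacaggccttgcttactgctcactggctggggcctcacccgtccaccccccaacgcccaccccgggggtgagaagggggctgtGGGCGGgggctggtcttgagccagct
NEO1 (chr15:73051652-73051901, + strand): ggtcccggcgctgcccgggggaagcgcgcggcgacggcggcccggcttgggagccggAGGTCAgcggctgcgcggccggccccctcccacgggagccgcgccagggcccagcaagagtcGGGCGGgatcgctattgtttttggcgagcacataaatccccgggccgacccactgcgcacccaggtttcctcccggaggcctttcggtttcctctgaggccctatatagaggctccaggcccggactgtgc
NTN4 (chr12:95791156-95791405, − strand): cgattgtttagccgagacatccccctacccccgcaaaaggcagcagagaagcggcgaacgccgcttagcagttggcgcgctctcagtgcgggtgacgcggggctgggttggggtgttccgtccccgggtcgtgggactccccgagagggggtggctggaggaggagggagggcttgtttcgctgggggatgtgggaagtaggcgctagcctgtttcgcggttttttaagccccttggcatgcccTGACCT

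The SLIT2, EFNB2 and PLXNB2 windows held 5, 3 and 1 GC boxes and no half-site. The half-site lay 193 bases before the start in NEO1 and 6 bases before it in NTN4, both genes that were lower in Dox in the 4-array comparison. A second start of NTN4 had a window without one. Of the 66 genes 57 had a window in the table used, with 88 windows in all, and of the 12 genes above 11 had one. On either strand, AGGTCA was in 10 of the 88 windows (11.4%), against 12.1% of 35116 windows of the same length across the genome. AAGGTCA, which contains the shorter motif, was in 1 of 88, that of SEMA4G (1.14%), against 3.44% of all windows. SEMA4G, a membrane-bound semaphorin, differed by 0.25 ± 0.13 in the 4-array comparison (limma adjusted p = 0.365). GGGCGG was in 69.3% of the 88 windows and in 42.6% of all windows. This contrast was not adjusted for base composition. The median GC content of all windows was 58%, and the windows printed above held 64.4% to 78.4%. A match of letters is not a binding site, and a window without one says nothing of binding elsewhere.

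The other higher genes moved less. SEMA7A, a lipid-anchored semaphorin that binds PLXNC1 and integrins, read 8.02, 7.83 and 8.72 in the basal and 7.97, 8.75 and 8.35 in the Dox arrays. It was 0.63 ± 0.12 higher in Dox in the 4-array comparison (limma adjusted p = 0.00916) and 0.17 ± 0.29 higher by label. PLXND1, a plexin of the vascular endothelium that binds SEMA3E, read 8.53, 8.54 and 8.90 in the basal and 8.58, 8.92 and 9.11 in the Dox arrays. Its difference was 0.48 ± 0.12 in the 4-array comparison (limma adjusted p = 0.0318) and 0.21 ± 0.19 by label. Both genes had basal 3 among their 3 highest arrays, and the labelled groups overlapped.

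Among the lower genes, PLXNC1 differed most. This plexin, the receptor of SEMA7A, read 10.49, 9.68 and 9.65 in the basal and 10.51, 9.77 and 8.79 in the Dox arrays. Basal 1 and Dox 1 stood high together and Dox 3 lay lowest. It was 1.75-fold lower in Dox in the 4-array comparison (−0.81 ± 0.11, limma adjusted p = 0.000724) and differed by −0.25 ± 0.45 by label. NTN4, a laminin-like netrin of basement membranes, read 5.15, 4.62 and 4.52 in the basal and 5.21, 4.38 and 3.83 in the Dox arrays, all below the median of the array. Its difference of −0.78 ± 0.13 (limma adjusted p = 0.00265) is thus between signals not shown to be above background. NEO1, the neogenin receptor of netrins and repulsive guidance molecules, read 9.51, 9.09 and 8.79 in the basal and 9.41, 8.82 and 8.65 in the Dox arrays. Dox 1 lay above 2 of the 3 basal arrays. Its difference was −0.56 ± 0.12 in the 4-array comparison (limma adjusted p = 0.0135) and −0.17 ± 0.26 by label.

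The 2 lower genes of the ephrin system were EPHB4, the venous endothelial receptor of EFNB2, and EFNA1, a lipid-anchored ligand of EPHA receptors. EPHB4 read 9.76, 9.87 and 9.13 in the basal and 9.75, 9.15 and 9.43 in the Dox arrays, with basal 3 lowest. EFNA1 read 9.91, 10.26 and 9.46 in the basal and 9.88, 9.54 and 9.40 in the Dox arrays, with basal 2 highest and Dox 3 lowest. The 4-array differences were −0.52 ± 0.11 for EPHB4 (limma adjusted p = 0.0128) and −0.61 ± 0.13 for EFNA1 (limma adjusted p = 0.0127). The 2 lower semaphorins both span the membrane. SEMA6A, a class 6 semaphorin that binds class A plexins, read 8.79, 8.81 and 8.03 in the basal and 8.74, 8.03 and 8.35 in the Dox arrays. SEMA4D, a ligand of B-class plexins known from T cells, read 7.79, 7.38 and 7.16 in the basal and 7.70, 7.14 and 7.04 in the Dox arrays. SEMA6A had basal 3 and Dox 2 as its lowest arrays, and SEMA4D had basal 1 and Dox 1 as its highest. The 4-array differences were −0.61 ± 0.13 for SEMA6A (limma adjusted p = 0.0115) and −0.50 ± 0.13 for SEMA4D (limma adjusted p = 0.0481). By label, the differences of these 4 genes ran from −0.27 to −0.14, all with overlapping groups.

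**Figure D2:**
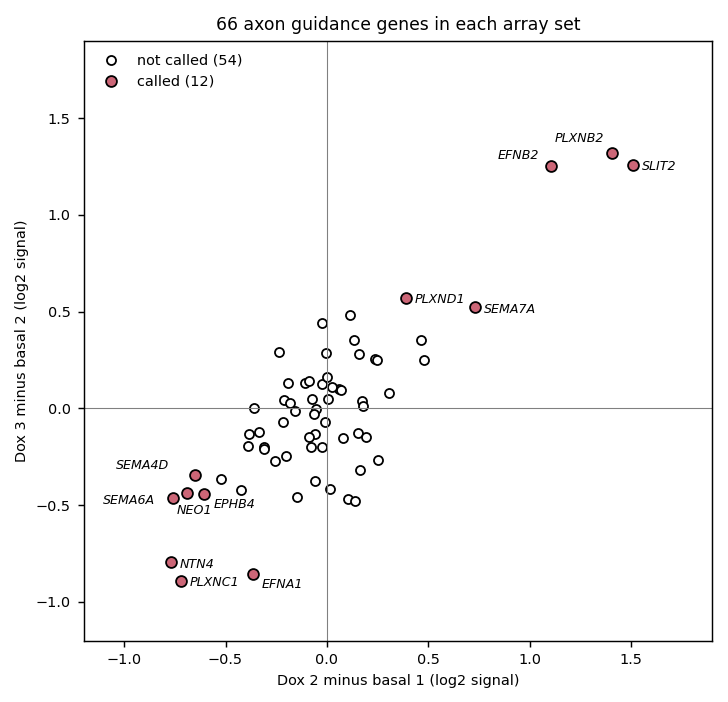
Dox 2 minus basal 1 (horizontal axis) against Dox 3 minus basal 2 (vertical axis), both in log2 signal, with 1 point for each of the 66 guidance genes and the 12 genes that passed in the 4-array comparison filled. The 5 higher genes lie in the upper right and the 7 lower genes in the lower left.

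The 4-array comparison is the mean of 2 differences, Dox 2 minus basal 1 and Dox 3 minus basal 2. All 12 genes had the same sign in both, as the call itself favours, and 46 of the 66 genes did. The share of all genes with the same sign was not counted. SLIT2 differed by 1.51 and 1.26, PLXNB2 by 1.41 and 1.32, and EFNB2 by 1.11 and 1.25. EFNA1 was the least even of the 12, with −0.37 and −0.85. Between the arrays left out, Dox 1 minus basal 3 was −2.03 for SLIT2 and −1.35 for PLXNB2. Its sign was opposite in all 12 genes, which the likeness of basal 1 to Dox 1 and of basal 3 to Dox 2 fixes and which is no separate observation.

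Ligands and their receptors are set side by side from the same 4-array fit. SLIT2 was 1.38 higher, while its receptor ROBO1 differed by −0.27 ± 0.09 (limma adjusted p = 0.14). ROBO1 read 11.04, 10.39 and 10.79 in the basal and 11.09, 10.78 and 10.11 in the Dox arrays, so the groups overlapped. The other Slits, SLIT1 and SLIT3, differed by −0.12 and −0.05 and did not pass. EFNB2 was higher and its receptor EPHB4 lower, and SEMA7A was higher and its receptor PLXNC1 lower. The other EPHB receptors did not share the fall of EPHB4 by the probe sets used. EPHB3 differed by 0.37 ± 0.13 (limma adjusted p = 0.145), EPHB1 by 0.30 ± 0.14 and EPHB6 by −0.18 ± 0.15, and none of them passed. For PLXNB2 the ligand SEMA4D was lower, and the ligand SEMA4C differed by 0.07 ± 0.11 (limma adjusted p = 0.832), with 9.74, 9.44 and 9.73 in the basal and 9.74, 9.77 and 9.55 in the Dox arrays. PLXNB1, another B-class plexin, differed by −0.01 ± 0.13 and did not pass. NTN4 and NEO1 were both lower. SEMA6A was lower, while the class A plexin PLXNA4 lay below the array median throughout, differed by −0.22 ± 0.14 and did not pass. EFNA1 was lower while EPHA2, a receptor it binds, lay below the array median throughout and differed by 0.10 ± 0.13.

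**Figure D3:**
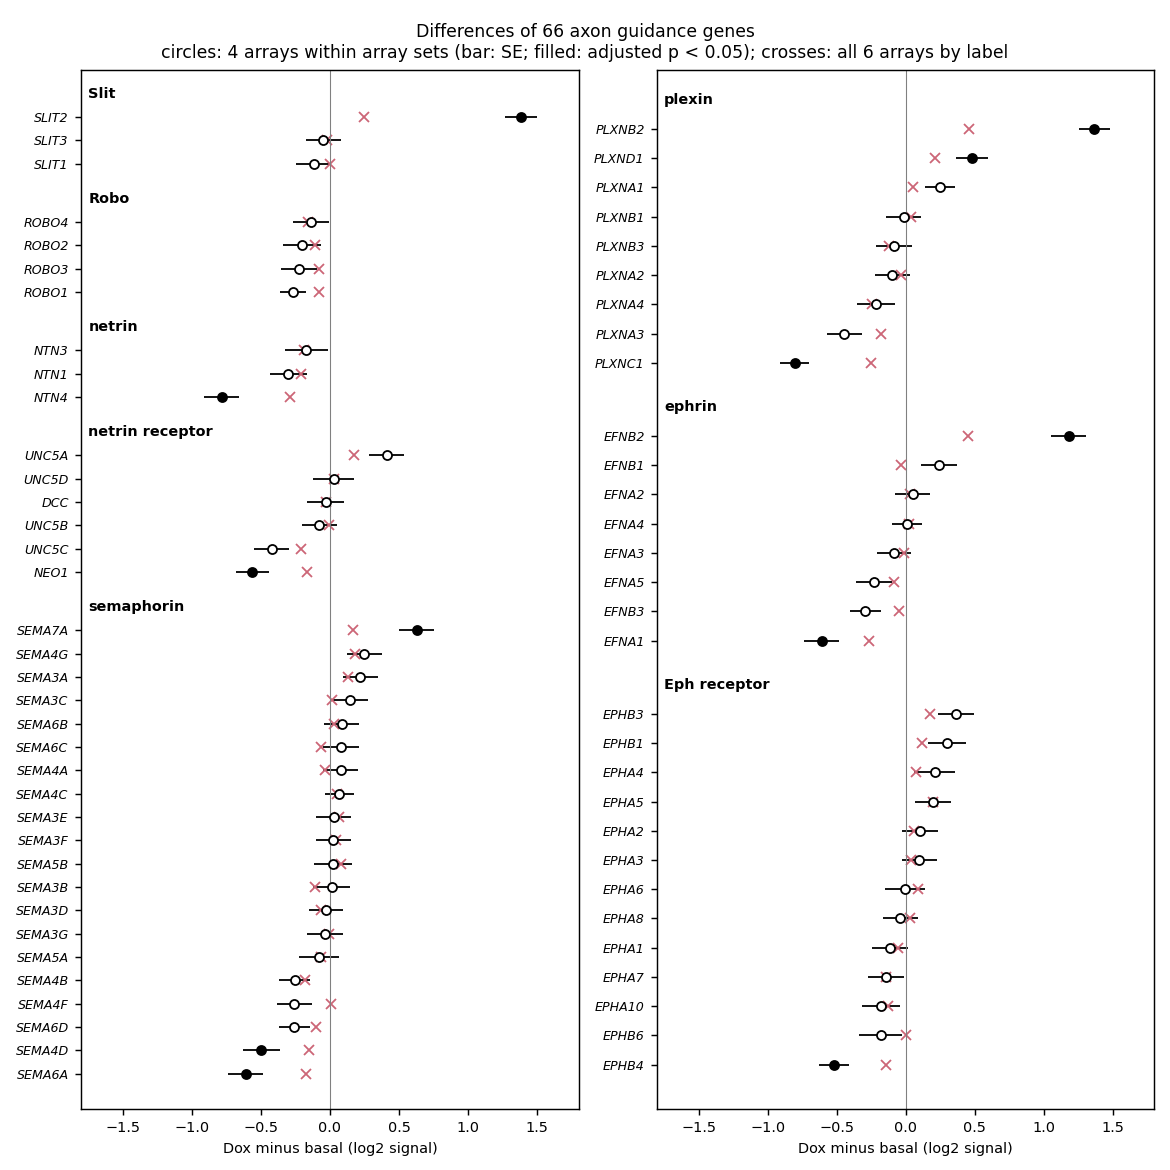
Dox minus basal difference (horizontal axis, log2 signal) of each of the 66 guidance genes by family, with circles for the 4-array comparison (bars are ± 1 SE of the fit, filled where a gene passed) and crosses for the labelled comparison of 3 against 3 arrays. The crosses lie between −0.29 and 0.46, and the circles run from −0.81 to 1.38.

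The 54 other guidance genes differed by −0.44 to 0.41 in the 4-array comparison and by −0.25 to 0.19 by label. Nearest to the threshold were PLXNA3, a class A plexin, at −0.44 ± 0.13 (limma adjusted p = 0.0683), UNC5C, a repulsive netrin receptor, at −0.42 ± 0.13 (0.0818), and UNC5A, another, at 0.41 ± 0.13 (0.093). UNC5A read 5.64, 5.46 and 5.98 in the basal and 5.68, 6.11 and 5.82 in the Dox arrays. UNC5C read 6.51, 5.87 and 5.99 in the basal and 6.21, 6.09 and 5.45 in the Dox arrays. These UNC5 receptors therefore had opposite signs, neither passing. NTN1, the classical secreted netrin, differed by −0.30 ± 0.14, EFNA4 by 0.01 ± 0.11, and SEMA6D, a class 6 semaphorin, by −0.26 ± 0.11, and 0 of these passed. SEMA6D spanned 1.05 over the 6 arrays, and its lowest arrays were Dox 3 (8.44) and basal 2 (8.64).

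The 66 genes were measured by 157 probe sets, and 48 genes had more than 1. Testing every probe set, 18 of the 157 passed in the 4-array comparison (11.5%), against 5.2% of all probe sets with 1 gene. The probe set used for SEMA4D did not pass in this test (limma adjusted p = 0.0546), so that 1 of the 12 calls was lost. SLIT2 was the most even, since all 3 of its probe sets passed, at 1.38, 1.50 and 1.53. Of 5 probe sets of SEMA6A 3 passed, and of 4 of PLXNC1 2 passed, at −0.81 and −0.64. Of the 12 genes, 10 had several probe sets. In 3 of these another probe set passed, and in 5 another had the opposite sign. PLXNB2 rests on 1 probe set, as its other one, of low signal, differed by −0.27. The other probe sets of EPHB4 (−0.21), SEMA7A (0.29), SEMA4D (−0.37), NEO1 (−0.46 and 0.07) and PLXND1 (0.35 and −0.04) did not pass. The other probe set of EFNB2, below the array median, gave 0.37 and did not pass. EPHB1, an Eph receptor that the study lists as changed on these samples, read 5.61, 5.50 and 5.92 in the basal and 5.67, 5.72 and 5.98 in the Dox arrays by its brightest probe set, a difference of 0.30 ± 0.14 (limma adjusted p = 0.307). A second probe set of EPHB1 read 4.16, 3.82 and 5.72 in the basal and 4.24, 5.57 and 5.01 in the Dox arrays. That probe set was 1.30 ± 0.14 higher in Dox and passed, though it lay above the array median on only 2 of 6 arrays. A low probe set of SEMA6B, a class 6 semaphorin, also passed, at 0.80, while the one used gave 0.08.

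**Figure D4:**
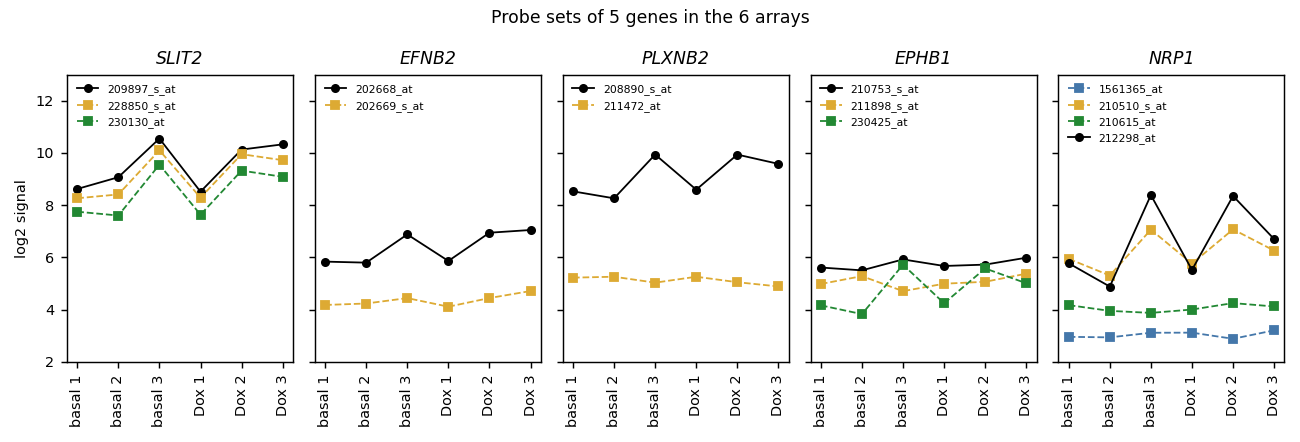
Log2 signal (vertical axis) of every probe set of SLIT2, EFNB2, PLXNB2, EPHB1 and the coreceptor gene NRP1 in each of the 6 arrays, in black for the probe set used for the gene and dashed for the others. The 3 probe sets of SLIT2 follow each other across the arrays, while those of PLXNB2 and EPHB1 do not.

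Beyond the ligands and receptors themselves, coreceptors and extracellular partners had 5 of 26 measured genes higher and 4 lower in the 4-array comparison, beside 3.42% higher and 3.58% lower of all genes, with a median difference of −0.01, and 0 passed by label. NRP1, a coreceptor of class 3 semaphorins and of VEGF that the study also lists as changed on these samples, read 5.77, 4.88 and 8.38 in the basal and 5.52, 8.35 and 6.70 in the Dox arrays. It was 2.20 ± 0.17 higher in Dox (limma adjusted p = 1.6e-05), though basal 3 was its highest array. NRP2, the other neuropilin, differed by −0.01 (limma adjusted p = 0.985). Also higher were LINGO1, part of the Nogo receptor complex, at 0.73, and the heparan sulphate proteoglycan SDC3 at 0.61. Lower were the adhesion molecule CHL1 at −1.15, FLRT3 at −0.94 and FLRT2 at −0.67, which bind UNC5 receptors, and DSCAM at −0.64. Of 52 measured intracellular signalling genes 2 were higher and 6 lower, beside the same shares of all genes, with a median of −0.03, and again 0 passed by label. The higher ones were the exchange factors VAV2 at 0.75 and TRIO at 0.59. Lower were ABLIM1, an actin-binding protein, at −1.30, the EphA-linked exchange factor NGEF at −0.94, the semaphorin effector MICAL2 at −0.77, and DPYSL5 at −0.61, RND2 at −0.57 and FARP1 at −0.39.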

How the data were processed

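RNA of 6 samples (3 basal, 3 Dox) was measured on HG-U133 Plus 2.0 arrays, grouped by the labels. The authors deposited 1 log2 value per probe set and array. GCRMA is named without a version in the submitters' processing notes; it models background from probe sequence and summarises each probe set on the log2 scale. The array medians were 5.56 to 5.60, so nothing was rescaled. GCRMA compresses low signals to a narrow range, which can shrink their differences.

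Of 54613 probe sets, 41091 (75.2%) list 1 gene in the platform annotation, and those with several (1801) or none (11721) were left out. Each of 19775 genes is represented by its probe set of highest mean. Models were fitted to all genes with limma 3.58.1 (lmFit, eBayes with trend) under R 4.3.3, two-sided, with Benjamini-Hochberg adjustment and a threshold of 0.05, after a test on simulated data. Exact permutation tests used scipy 1.17.1, and figures matplotlib 3.10.9 under Python 3.11.15. The SE comes from the moderated variance. The study calls the arrays biological replicates and names no test. The number of arrays limits the precision.

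Members, lists and the rule for named genes (genes past the threshold, the brightest and the most variable of each family, genes the study lists, NRP1 and NRP2, and the leading genes of other lists) were chosen with earlier results of these data known. Promoter windows are from RefSeq (GRCh38.p14). Alternatives changed the block, the arrays left out, the probe sets, the trend, the scaling, the genes tested and the threshold.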

Additional observations from a re-analysis of the deposited data

How the results depend on the processing

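By label, 0 guidance genes passed the adjusted limma threshold under every alternative run, including those that left out 1 array in turn. In the 4-array comparison, 5 higher and 7 lower genes became 0 and 0 with basal 1 and Dox 2 left out instead. They became 0 and 0 with no block, and 3 and 0 with the study's thresholds. The label style is a title that spells out the treatment (basal 1 and Dox 1, an alike pair) or a code (the other arrays). Dox 2 minus basal 1 crosses this split. As the block among the 4 arrays, the label style sets basal 1 alone, so that basal 2 alone is compared with Dox 2 and Dox 3. No count is given for that setting. With basal 1 and Dox 2 left out instead, the sign turned in SLIT2 (−0.39), PLXNB2 (−0.0125), SEMA7A (−0.12), NRP1 (−0.52), SEMA6A (0.12), SEMA4D (0.10), NEO1 (0.0925) and EPHB4 (0.0876). That setting is the mean of Dox 1 minus basal 3 and Dox 3 minus basal 2. The likeness of the arrays fixes the sign of the first of these but not the sign of the mean, which follows the larger difference. Of 14 genes, the 12 with EPHB1 and NRP1, the sign turned in 8, 5 were weaker and 1 stayed the same. As the first difference follows from that likeness, these turns are no separate observation. Without probe sets that may bind several transcripts, PLXNB2 turned to −0.27 because its other probe set was used, and EPHB1 passed at 1.30. With the mean of all probe sets EPHB1 passed at 0.56, and NEO1 (−0.32) and PLXND1 (0.26) no longer did. Without the mean-variance trend PLXND1 (adjusted p = 0.0525) and SEMA4D (0.0587) no longer passed. Quantile normalization, the mean of all probe sets, no trend, no shared probe sets and genes above the median level (26 guidance genes tested) gave 4 to 6 higher and 6 to 8 lower genes. With no block, the smallest adjusted p of the 12 was 0.185, for EFNB2. The labels give the arrays no shared replicate numbers, so no block by replicate number was run. By label, the array set and the label style were each run as a block. Beyond these settings, the cause of each change was not tested. The 20 genes below the array median on all 6 arrays, NTN4 among them, have a signal not shown to be above background.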

Other observations

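Basal 2 and Dox 3 differed from the other arrays in ways that the labels do not give, and some guidance genes differed along this split within both labels. Basal 2 minus basal 1 and Dox 3 minus Dox 2 had the same sign in 42 of the 66 genes, and 9 genes differed by over 0.4 in both. The ephrins EFNA3 (0.56 and 0.70), EFNA5 (0.48 and 0.70) and EFNB3 (0.46 and 0.66) and the semaphorin SEMA4G (0.41 and 0.41) were higher in basal 2 and Dox 3. The plexin PLXNC1 (−0.80 and −0.97), the semaphorin SEMA6D (−0.84 and −0.74), the Slit receptor ROBO1 (−0.65 and −0.66), the netrin receptor UNC5C (−0.64 and −0.64) and NTN4 (−0.53 and −0.56) were lower. These are differences between single arrays, with no test, and what sets the arrays apart was not tested.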
